A study of Prunus persica with 2 samples.

Results

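Anthocyanins are the red and purple pigments of peach fruit, and they are made in the cytosol by a branch of phenylpropanoid metabolism. Chalcone synthase joins a hydroxycinnamoyl-CoA to malonyl units, chalcone isomerase closes the flavanone ring, and flavanone 3-hydroxylase (F3H) makes dihydroflavonols. Dihydroflavonol reductase (DFR) and anthocyanidin synthase (ANS) turn these into coloured anthocyanidins, a UDP-glucose flavonoid glucosyltransferase (UFGT) adds the sugar that stabilises them, and a glutathione S-transferase (GST) escorts the pigment to the vacuole. In peach, as in other plants, several of these genes are known to be switched on together by MYB and bHLH transcription factors.

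The 8 genes described here are fixed by identifier and cover 7 of these functions, with 2 chalcone synthase genes (CHS-a and CHS-b below), among 27806 gene rows in all. The enzyme names come with the definition of the set. Neither the deposited tables nor the RefSeq gene table used here pairs these identifiers with a product (0 of 8 matched), so the identities were taken as given and not tested. The RNA came from wounded peach (Prunus persica) fruit sampled 3 days after 30 μL of liquid was placed in each wound, with the fruit held at 28 °C and 95% relative humidity. In the control group the liquid was sterile water, and in the yeast group a suspension of Pichia membranaefaciens, a yeast studied for biological control of postharvest rot. No source used here gives the cultivar, the number of fruit per library or the depth of tissue taken. The series asks which genes linked to resistance differ between wounds with and without the yeast.

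There was 1 library per group, so no value below has a replicate error, and no test, p-value or SD is given. About 26800000 fragments lay behind the control values and about 25100000 behind those of the yeast library. A treatment difference and a difference between the fruit sampled cannot be told apart, and in bulk tissue neither can more cells of a type and more RNA per cell. Levels are FPKM (fragments per unit of exon length and of library depth), a scale per length, so levels of different genes may be set side by side. Intervals of ratios are exact at 95% and cover counting error only.

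Nearly all genes of the set were more abundant in the yeast-treated wound. All 8 genes passed 1 FPKM in both libraries, and 7 of them were higher with the yeast by 1 or more on the log2(FPKM + 1) scale, the size used here to call a difference. The same size was reached upward by 1.61% of the 15197 genes measured, and downward by 1.70%, and among annotated genes alone by 1.45% upward. None of the 8 (0) was lower. All 7 also passed a difference of 2, which 0.263% of genes did; with a pseudocount of 5 in place of 1, DFR had 1.93 and 6 passed it. The exception was chalcone isomerase. The median difference of the 8 genes was 2.81, beside 0.02 over all genes measured, whose central 90% lay between -0.57 and 0.58. The set and its members were chosen with earlier results of these data known, so these shares describe the 8 genes and are no test of them.

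**Figure D1:**
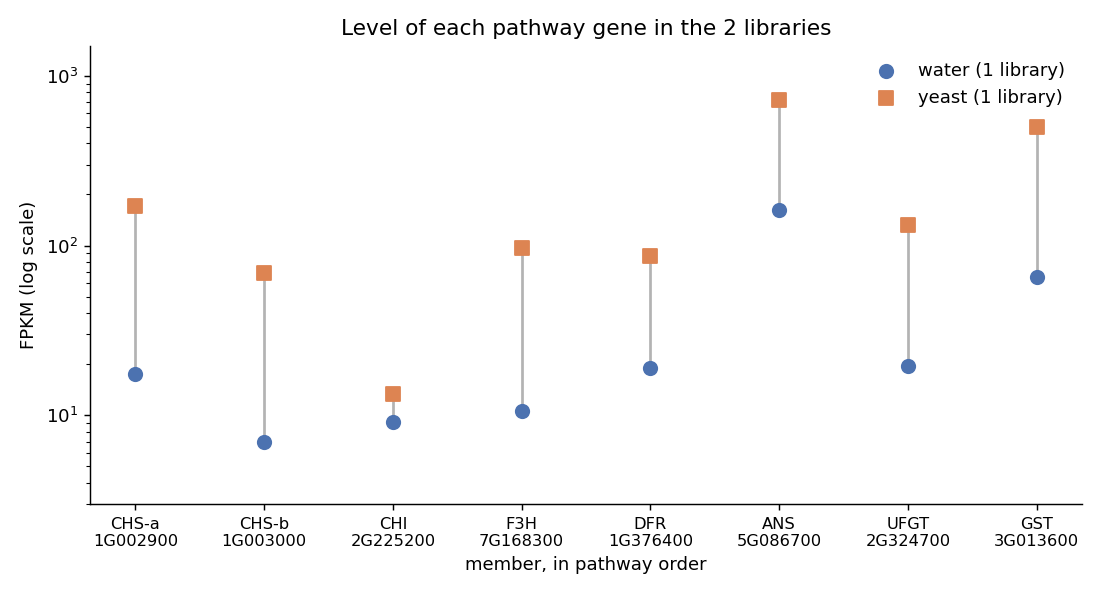
FPKM of each of the 8 genes on a log axis, in pathway order, with circles for the control (water) library and squares for the yeast library, 1 library each. The yeast value lies far above the control value at 7 genes, and at chalcone isomerase it moves only from 9.19 to 13.4 FPKM.

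The first committed step had the highest ratios of the set. CHS-a (Prupe.1G002900, 2 exons on the minus strand of Pp01, 312661 to 314932) had 17.4 FPKM with water and 171 FPKM with the yeast. CHS-b (Prupe.1G003000, 2 exons on the same strand, 319777 to 321560) had 6.93 FPKM with water and 69.0 FPKM with the yeast. Yeast over control, the ratio was 9.82 (counting interval 9.12 to 10.6) at CHS-a and 9.96 (8.81 to 11.3) at CHS-b, so the ratios of the pair lay within counting error of each other. The genes lie 4844 bases apart, and CHS-a stood above CHS-b by a near-constant factor, 2.51 in the control and 2.48 in the yeast library. Neighbouring copies of one enzyme can be close in sequence and share reads. No sequence was available to test this, so the division between the pair is uncertain. Their sum was 24.3 FPKM with water and 240.05 FPKM with the yeast. As far as reads are shared only between these genes, the sum depends little on the division. FPKM is per length, and the lengths of CHS-a and CHS-b are close, at 1652 and 1566 bases.

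The next enzyme did not follow. Chalcone isomerase (Prupe.2G225200, 4 exons on the minus strand of Pp02, 25223989 to 25225403) had 9.19 FPKM with water and 13.4 FPKM with the yeast, from about 238 and 325 fragments. Its ratio was 1.46 (counting interval 1.23 to 1.73) and its difference 0.50, a size that 6.76% of all genes measured reached or passed upward. Summed chalcone synthase RNA was 2.65 times that of chalcone isomerase in the control and 17.9 times in the yeast library. Chalcone isomerase went from the seventh place of 8 in the control to the last in the yeast library. Whether another gene supplies this step in fruit cannot be read from the tables, which carry no product names.

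F3H, which acts on the product of the isomerase, again had a ratio close to that of chalcone synthase. It is Prupe.7G168300, which has 3 exons and lies on Pp07, plus strand, at 17131540 to 17133808. Its level was 10.6 FPKM with water and 97.4 FPKM with the yeast, a ratio of 9.19 (8.32 to 10.2). This interval overlaps those of both chalcone synthase genes and lies above that of every later gene of the pathway described here.

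The reductase and the synthase that follow were also higher, by smaller factors. DFR (Prupe.1G376400, plus strand of Pp01, 34110835 to 34113473) had 19.0 FPKM with water and 86.4 FPKM with the yeast, a ratio of 4.54 (4.23 to 4.87). ANS (Prupe.5G086700, minus strand of Pp05, 9816076 to 9818049) was the most abundant of the 8 in both libraries, at 161 FPKM with water and 721 FPKM with the yeast, a ratio of 4.48 (4.37 to 4.59). Their intervals overlap, and ANS stood at 8.46 times DFR in the control and at 8.35 times in the yeast library. F3H, by contrast, was at 0.557 times DFR in the control and at 1.13 times in the yeast library, so the order of this pair was reversed.

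The genes for sugar addition and transport lay between these groups. UFGT (Prupe.2G324700, 2 exons on the plus strand of Pp02, 30032812 to 30034737) had 19.6 FPKM with water and 133 FPKM with the yeast, a ratio of 6.77 (6.33 to 7.26). The GST gene (Prupe.3G013600, 3 exons on the minus strand, Pp03, 957511 to 958712) was the second most abundant of the 8 in both libraries. It had 65.7 FPKM with water and 501 FPKM with the yeast, a ratio of 7.63 (7.25 to 8.03), with about 1707 and 12205 fragments behind these values. The intervals of UFGT and GST meet at their ends, and neither overlaps those of DFR, ANS or F3H.

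**Figure D2:**
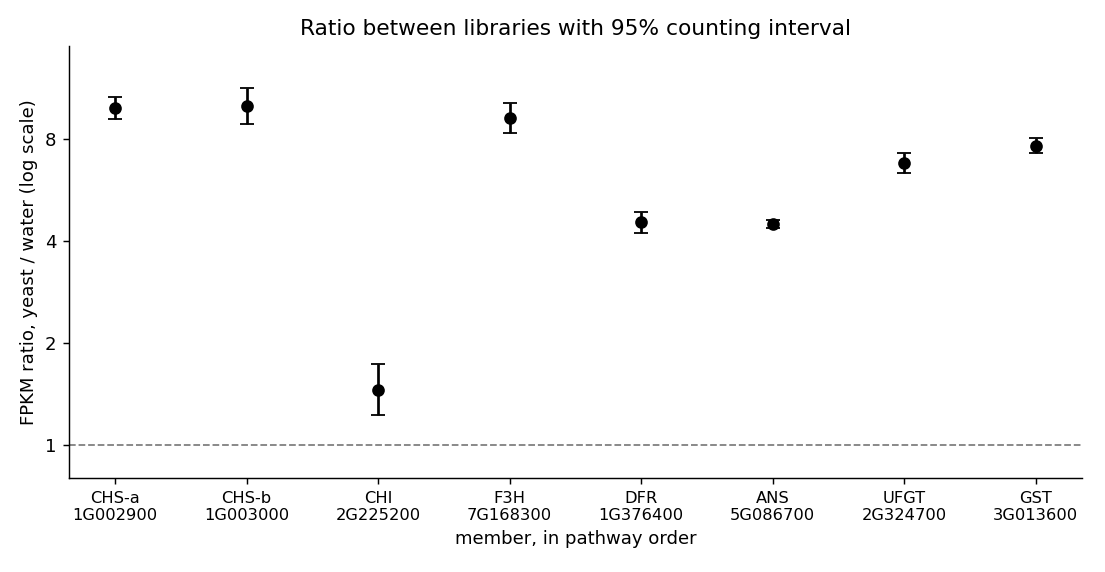
Ratio of FPKM, yeast over control, for each gene on a log axis, with exact 95% counting intervals from the estimated fragments. The 2 chalcone synthase genes and F3H lie between 9.19 and 9.96, GST and UFGT at 7.63 and 6.77, DFR and ANS at 4.54 and 4.48, and chalcone isomerase at 1.46.

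Added together, the 8 genes made up 309 FPKM with water and 1792 FPKM with the yeast, a factor of 5.79. This was 0.0536% of all FPKM with water and 0.311% in the yeast library. ANS alone held 52.0% of the sum in the control and 40.2% in the yeast library. The distance between the most and the least abundant of the 8 genes widened from a factor of 23.2 to one of 53.8, with chalcone isomerase in place of CHS-b at the lower end.

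Ranked by level over all gene rows, every member stood at a higher place in the yeast library. CHS-a stood at place 5214 in the control and at place 446 in the yeast library. F3H moved from place 7240 to 940, and UFGT from 4750 to 630. ANS, already at place 531 in the control, was at place 70 with the yeast, and GST moved from 1527 to 111. Chalcone isomerase moved from place 7787 to 6334.

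Few genes within the range of control levels of the members differed as much. The range is wide, so it is no close match in abundance to any single member. Between the lowest and the highest control level of the 8 members, 6.93 to 161 FPKM, lay 8230 annotated genes, members included. Of these, 70 (0.851%) were higher by 1 or more and 17 (0.207%) by 2 or more, and 7 of the 17 were the pathway genes. Ordered by difference among the 14268 annotated genes measured, CHS-a was at place 4, CHS-b at 5, F3H at 7, GST at 10, UFGT at 13, ANS at 25 and DFR at 30, while chalcone isomerase was at place 868.

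**Figure D3:**
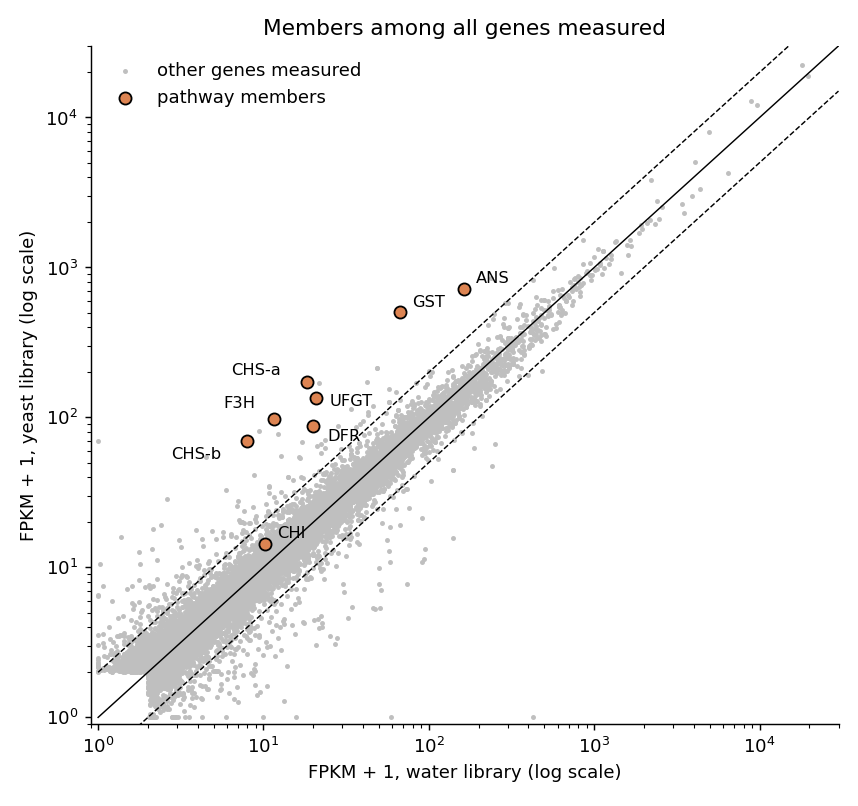
FPKM + 1 in the control library (x) against the yeast library (y), both on log axes, for the 15197 genes measured; the solid line marks equal values and the dashed lines a difference of 1 on the log2 scale. Of the members, 7 lie above the upper dashed line and away from the cloud of genes of the same control level, and chalcone isomerase lies inside it.

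Genes beside the members on the chromosomes mostly stayed near their control values, as most genes measured did. The 8 genes lie on 5 of the pseudomolecules, and only the chalcone synthase genes are next to each other. Taking 3 annotated genes on each side gave 42 distinct neighbours that are not members, of which 32 reached 1 FPKM. Their median difference was 0.05, with 19 above and 13 below the control, and 31 of the 32 differed by less than 1. The exception was Prupe.3G013700, 19790 bases from the GST gene, with 1.15 FPKM with water and 5.16 FPKM with the yeast, a difference of 1.52. Of all genes measured, 1.61% were higher by 1 or more and 1.70% lower, so the neighbours were much like genes at large. The neighbours of the chalcone synthase pair, Prupe.1G002800 and Prupe.1G003100, had differences of 0.34 and 0.08. The UFGT gene overlaps Prupe.2G324800 on the opposite strand by 7 bases, and that gene had 34.4 FPKM with water and 32.8 FPKM with the yeast.

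**Figure D4:**
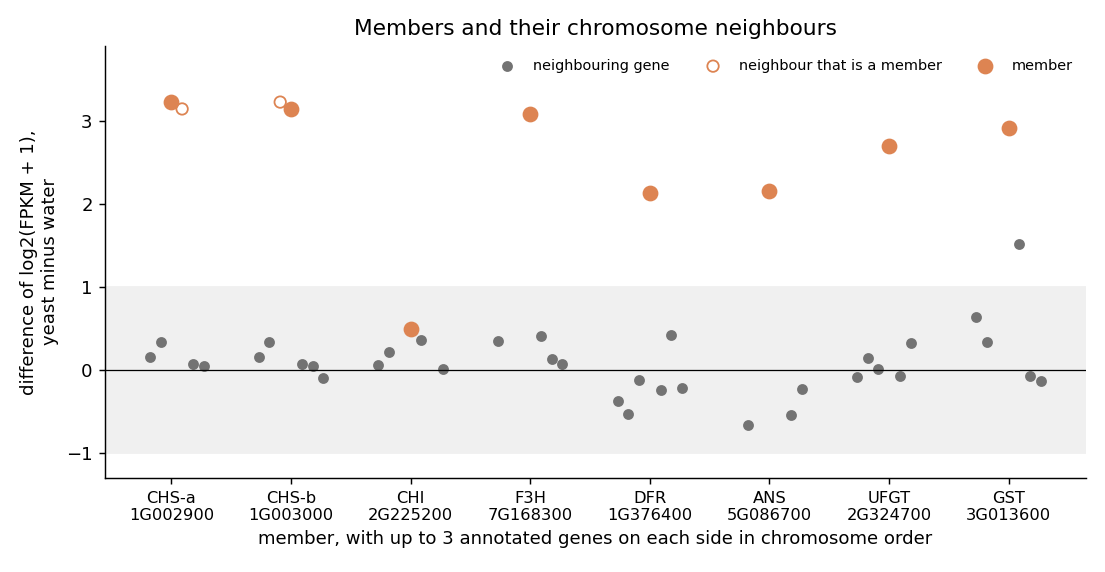
Difference of log2(FPKM + 1), yeast minus control, for each member and for those of the 3 annotated genes on each side that reached 1 FPKM; open circles mark a neighbour that is itself a member, and the grey band covers differences under 1. Filled member points stand at 2.13 or above except chalcone isomerase at 0.50, and only 1 neighbour, beside GST, leaves the band.

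The difference was carried by the same annotated transcripts in both libraries. The members have 13 annotated transcripts, and 3 of these, 1 each at DFR, F3H and ANS, were listed at 0 in both libraries. Of the CHS-a fragments, Prupe.1G002900.1 held 97.5% in the control (exact 95% interval 96.2% to 98.5%) and 96.7% in the yeast library (96.3% to 97.1%). ANS was divided between a transcript of 2 exons and one of 3 exons. The form with 3 exons, Prupe.5G086700.2, held 45.7% of the fragments in the control (44.5% to 46.8%) and 48.0% in the yeast library (47.5% to 48.6%). Both ANS forms were higher with the yeast, at ratios of 4.29 (4.14 to 4.44) for the form of 2 exons and 4.71 (4.54 to 4.88) for the form of 3. These shares are the authors' division of short reads, and its error is not in the intervals.

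A further 3 transcripts, assembled anew from the reads, lie on the strand opposite the members, 1 across the chalcone synthase pair and 2 at ANS. MSTRG.24.1, 2 exons on the plus strand of Pp01 from 313468 to 320822, begins within CHS-a and ends within CHS-b. Its exons add up to only 294 bases, so most of that span is intron. The doubt over reads shared by the chalcone synthase pair applies to it too and was not tested. It had 1.40 FPKM with water and 18.2 FPKM with the yeast. At ANS, MSTRG.9540.1 had 3.59 FPKM with water and 9.70 FPKM with the yeast, and MSTRG.9541.1 had 1.32 and 4.45 FPKM. All 3 were higher by 1 or more. In all, 179 new transcripts, these 3 included, reached 1 FPKM in a library and overlapped a measured annotated gene on the opposite strand. Of the 179, 9.50% were higher by 1 or more. The 3 opposite the members rest on few fragments, about 11 and 135 for MSTRG.24.1, and are not part of the gene values given above. No source used here says whether the libraries were stranded, so reads of a gene and of its opposite transcript cannot be told apart.

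**Figure D5:**
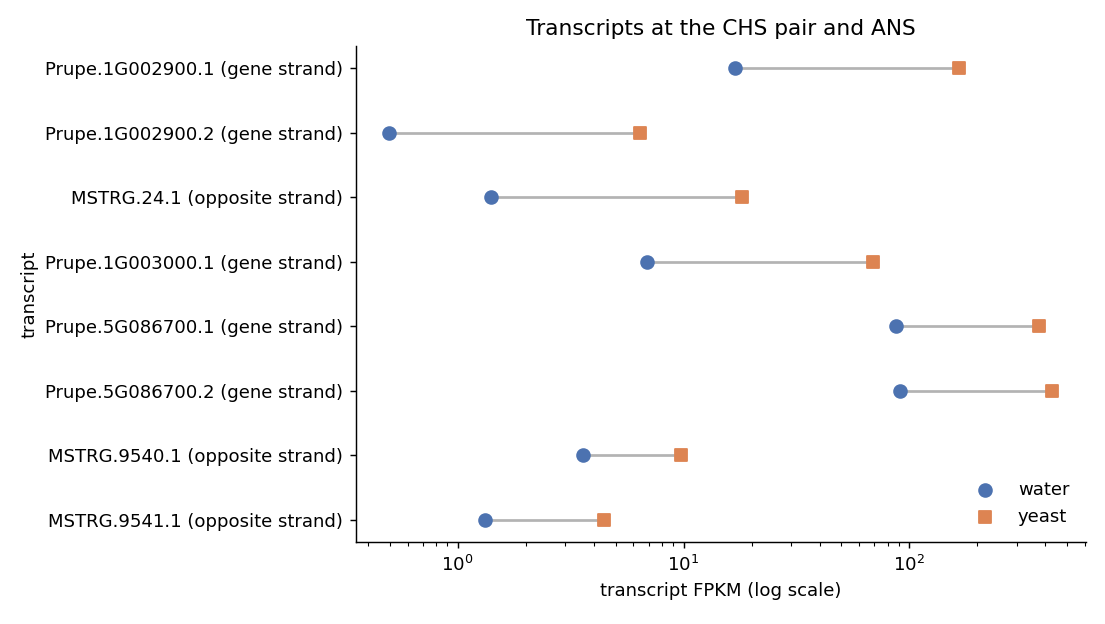
Transcript FPKM on a log axis in the control (circles) and yeast (squares) libraries for the transcripts at the chalcone synthase pair and ANS that were above 0. Each of the 8 transcripts shown, on the gene strand or opposite it, is higher in the yeast library, and those on the opposite strand stay below 20 FPKM.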

How the data were processed

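RNA from 2 wound samples was sequenced, 1 per group, and groups follow the treatment label. The submitters' processing notes list HISAT2 and HTSeq 0.6.1 without saying what each did; no source used here gives the genome build, the annotation or the assembler. The authors deposited FPKM values in 1 gene table (27806 rows) and 2 transcript tables (51199 rows each), and the coverage values were deposited by the authors per transcript. For each member the gene value equalled its annotated transcripts' FPKM times length, over 1 length that was the same in both libraries. Coverage divided by FPKM was constant (8.04 in the control, 7.54 in the yeast library); with 300 bases taken as 1 fragment, the commonest product of coverage and length, it gives the depths and fragments printed. These numbers are estimates, since the authors divided reads among transcripts.

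Computed here with Python 3.11.15, numpy 2.4.6, pandas 2.3.3 and scipy 1.17.1 was the difference of log2(FPKM + 1), yeast minus control, with a pseudocount of 1, for genes at 1 FPKM or more in at least 1 library. A difference of 1 in size was called. This scale understates the change of low genes. Ratios are of FPKM, with exact (Clopper-Pearson) intervals from the fragments. Members and lists were chosen with earlier results of these data known. The lists of other pathway genes and of tissue markers were defined by product name and could not be applied, since 0 identifiers matched the RefSeq table (Prunus_persica_NCBIv2); the tissue label was therefore not checked against markers, and no sequence is printed. All 8 members are named. Alternatives covered pseudocount, scaling, filter, threshold and transcript sums.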

Additional observations from a re-analysis of the deposited data

Results flagged for a closer look

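The 3 newly assembled transcripts on the strand opposite the members lie outside the gene values, and each was above its control level. MSTRG.24.1, across the chalcone synthase pair, stood at 18.2 FPKM in the yeast library, a ratio of 13.0 to the control with a counting interval of 7.09 to 26.8. MSTRG.9540.1, opposite ANS, stood at 9.70 FPKM in the yeast library, with a ratio of 2.70 (1.72 to 4.35). MSTRG.9541.1, also opposite ANS, stood at 4.45 FPKM in the yeast library, with a ratio of 3.37 (1.84 to 6.43). Set against the FPKM of the gene, MSTRG.24.1 stood at 8.07% of CHS-a in the control and 10.6% in the yeast library. MSTRG.9540.1 stood at 2.23% and 1.35% of ANS. These are not shares of fragments, since FPKM is per length and MSTRG.24.1 has 294 bases against 1652 for CHS-a. The counting interval of the MSTRG.24.1 ratio also holds the CHS-a ratio of 9.82. At ANS, whose ratio was 4.48, the interval of MSTRG.9541.1 holds that value and the interval of MSTRG.9540.1 lies below it. Among the 179 new transcripts described above, 8 others lay opposite annotated genes that were called higher. All 8 were above their control value and 4 of them by 1 or more. Over all 179, 9.50% were higher by 1 or more, and the median difference was 0.04. The 8 were picked by the call of their gene, and reads of a gene and of its opposite transcript cannot be told apart.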

How the results depend on the processing

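Under each of the 10 alternatives run (pseudocounts of 0.1 and 5, upper quartile and trimmed mean scaling, sums of all or of annotated transcripts, thresholds of 2 and 0.5, no filter and a filter of 5 FPKM), 7 members were higher and 0 lower. Chalcone isomerase stayed uncalled at a threshold of 0.5, which its difference misses narrowly. This rests on the pseudocount of 1, since with a pseudocount of 0.1 its difference was 0.54, above that threshold. The 2 settings were not run together. The median difference of the members was 2.56 with a pseudocount of 5, compared with 2.81, because a larger pseudocount shrinks differences by construction. Each member's difference with a pseudocount of 1 was given a range as wide on the log2 scale as the counting interval of its ratio, placed around that difference; of 64 values of single members under the alternatives, 59 stayed within this range, 5 left it, all under the pseudocount of 5, and 0 changed sign. Not all of these values were free to move. Neither filter setting could change a member's difference, since every member exceeded 5 FPKM in both libraries. The transcript sums left CHS-b, chalcone isomerase, DFR, UFGT and GST unchanged, each with a single transcript above 0. The count of 59 therefore overstates how far the settings were a trial. Scaling moved the median of all genes to -0.0019 (upper quartile) and 0.0036 (trimmed mean). The counts of the other pathway lists were not run, because identifiers matched no product names. No paired analysis was possible because the groups hold 1 library each, which also leaves no replicate to drop. Chalcone isomerase rests on the fewest fragments in the yeast library, about 325.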
